A study of Mus musculus with 2 samples.

Results

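The 9 genes described here encode carriers that move amino acids across the plasma membrane: Slc7a1, Slc7a2, Slc7a5, Slc7a11, Slc3a2, Slc38a1, Slc38a2, Slc1a4 and Slc1a5. They were chosen with earlier results of these data known and were taken by symbol. All 9 were found among the 32285 genes of the count matrices, each with 1 entry. Their transcripts were followed in the vessel types of the mouse lung, in 1 control library and 1 library made after injection of B16-F10 cells, a melanoma line of mouse skin. Both groups were wild-type (WT) C57BL/6 mice. Control mice received PBS through the tail vein. The other mice received 400000 B16-F10 cells in 100 µl, labelled with a green tracker dye, and lungs of both groups were taken 6 h later. The study's methods name adult male mice for its work in this strain. Endothelial cells were sorted as Pecam1-positive and Ptprc-negative, and the injected sample, unlike the control, also received sorted melanoma cells carrying the dye. The labels give 2 mice per treatment. The paper gives another number for this experiment. Cells of the mice of a treatment were pooled. There was thus 1 library per group and no replicate error, so no test was made and no p-value is given. All intervals below are 95% intervals that cover counting error only.

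Some amino acid carriers of the solute carrier families work by exchange and some by cotransport with sodium. Slc3a2 encodes a glycoprotein heavy chain that brings several Slc7 light chains to the cell surface. Its partners include Slc7a5, which exchanges large neutral amino acids such as leucine, and Slc7a11, which imports cystine against glutamate and so feeds glutathione synthesis. Slc7a1 and Slc7a2 are cationic amino acid carriers that take up arginine, the substrate of nitric oxide synthases, and they need no heavy chain. Slc38a1 and Slc38a2 import small neutral amino acids with sodium. Slc1a4 and Slc1a5 exchange neutral amino acids, and Slc1a5 is known for glutamine. Several of these genes are known targets of the transcription factor Atf4 when amino acids run short.

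In GRCm38, the build of the files, Slc3a2 (ENSMUSG00000010095) is a protein-coding gene at chr19:8706882-8723369 on the minus strand. Slc7a1 (ENSMUSG00000041313) lies at chr5:148327410-148399904 and Slc7a11 (ENSMUSG00000027737) at chr3:49892526-50443614, both on the minus strand. Slc7a5 (ENSMUSG00000040010) lies at chr8:121881150-121907694 on the minus strand and Slc1a5 (ENSMUSG00000001918) at chr7:16781340-16798274 on the plus strand. Slc38a1 and Slc38a2 are neighbours at chr15:96571418-96642913 and chr15:96687392-96699730. Slc1a4 lies at chr11:20302180-20332713 and Slc7a2 at chr8:40862396-40922308. In the GENCODE annotation Slc7a2, Slc7a5 and Slc7a11 overlap other gene models on the opposite strand, and Slc7a11 also contains processed pseudogenes. On its own strand Slc7a11 overlaps Gm37692, which is a processed pseudogene, and the gene model Gm37498. How the counting treated such reads is not given in the sources used here, so the counts of these 3 genes are the less certain ones.

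Promoter windows from RefSeq (GRCm38.p6) were matched for 5 of the 9 genes. They were searched on both strands for TGATGNAAN, letters of the C/EBP-ATF response element to which Atf4 and C/EBP factors bind. Each window ran from 250 bases before a start site to 50 bases after it. Of 32851 such windows, 3.95% held these letters. The Slc7a11 window held them 2 times, on opposite strands, and is shown because Slc7a11 is the member with the largest ratio below. The window searched was chr3:50443564-50443863 on the minus strand. Its 250 bases before the start site, chr3:50443614-50443863, are printed with the matches in capitals.

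Slc7a11: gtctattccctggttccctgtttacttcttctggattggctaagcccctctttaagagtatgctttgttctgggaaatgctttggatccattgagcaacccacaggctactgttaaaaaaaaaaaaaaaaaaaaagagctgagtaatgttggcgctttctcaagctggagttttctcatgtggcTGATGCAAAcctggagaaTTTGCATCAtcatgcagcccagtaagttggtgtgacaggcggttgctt

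The matches begin 66 and 48 bases before the start site. The Slc1a4 window held GTTGCATCA from 5 bases before its start site, at chr11:20332710-20332718. The windows of Slc3a2, Slc38a2 and Slc7a1, which has 2 windows, held no match to these letters. The Slc3a2 window, with upstream bases chr19:8713898-8714147, lies inside the gene, whose annotated start on the minus strand is at chr19:8723369. The bases around that annotated start were not searched. A second motif, TTCNNNGAA, the palindromic letters of the GAS element that STAT factors bind, occurred in 8.30% of windows, among them those of Slc7a11 (183 bases before the start site) and the second window of Slc7a1 (146 bases before). The motif TGACNNNGC, the core of the antioxidant response element, occurred in 12.4% of windows, among them the first window of Slc7a1 and that of Slc38a2. These are matches of letters only, and no factor binding was measured.

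The control library held 85794655 counts of unique molecular identifiers (UMIs, each marking 1 captured RNA molecule) and the B16-F10 library 104978816. After limits on genes and mitochondrial UMIs and removal of doublets, 7830 and 7767 cells remained, with a median of 7500 and 8544 UMIs. The libraries shared 21 cell barcodes. Endothelial cells fell into 5 classes named from markers. General capillary (gCap-like) cells, which line most of the alveolar capillary bed, numbered 4840 and 4452. Aerocyte capillary (aCap-like) cells, which lie against the gas exchange surface, numbered 1450 and 966. Larger vessels gave 186 and 139 artery-like and 300 and 298 vein-like cells. Lymphatic endothelium (LEC-like) gave 57 and 51. All 8 endothelial markers, such as Pecam1 and Cdh5, were present in each of these classes. The B16-F10 library also held 77 melanoma-like cells and the control library none.

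The makeup of the capillary classes was not alike in the libraries. Clusters led by Ntrk2 and by Hey1 held most of the control gCap-like cells, with 1356 and 1343 cells against 714 and 691 in the B16-F10 library. Clusters led by Chrm2 (861 and 1166 cells) and by Tmem252 and Adamts9 (84 and 1067 cells) were larger in the B16-F10 library. The leading genes of the last one include Pim3, Grrp1, Disp2 and Scarb1, markers that the study gives for its reactive capillary (rCap) cells. Most aCap-like cells came from 1 cluster in the B16-F10 library (900 of 966) and from the same and another cluster in the control library (947 and 503 of 1450). None of the 9 transporters was used in clustering.

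In gCap-like cells, 6 of the 9 transporters were called higher in the B16-F10 library and none lower. Levels are counts per 1000000 UMIs (CPM) of the class sum, and a gene was called where its log2 ratio of B16-F10 over control reached 0.5 in size with a counting interval that excluded 0. Of the 9 genes, 8 had the 50 UMIs over both sums that the call required. Among all 13225 genes measured in these cells, 9.16% were called higher and 11.6% lower. Since the members were chosen with earlier results of these data known, their count beside these shares is a description. The median log2 ratio of the 8 measured transporters was 0.98 (0.86 to 1.09, the interval of the genes at the median), against −0.04 over all measured genes.

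The heavy chain gene Slc3a2 had by far the most UMIs behind it. Its level was 454 CPM (447 to 461) in control gCap-like cells and 864 CPM (854 to 873) in those of the B16-F10 library. The log2 ratio was 0.93 (0.90 to 0.96). Slc3a2 is itself one of the study's rCap markers, which were chosen partly on these libraries, so its direction here is not independent evidence. Among its light chain partners, Slc7a5 was at 0.359 CPM (0.191 to 0.614, 13 UMIs) in control cells and 1.62 CPM (1.25 to 2.08, 63 UMIs) in B16-F10 cells, a log2 ratio of 2.18 (1.30 to 3.16). Slc7a11 was at 0.608 CPM (0.381 to 0.920) and 3.27 CPM (2.73 to 3.89), a log2 ratio of 2.43 (1.77 to 3.15). Both light chains were thus rare transcripts in either library, and their ratios carry wide intervals.

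The Slc7a11 UMIs were unevenly spread over cells. In the B16-F10 library 61 of 4452 gCap-like cells had any, and 10 of those cells held 72 of the 127 UMIs, with 26 in a single cell. In control cells 17 of 4840 had any, with at most 3 in a cell. Counted as cells, the share with a Slc7a11 UMI was 0.351% (0.205 to 0.562) in the control library and 1.37% (1.05 to 1.76) in the B16-F10 library, a difference of 1.02 percentage points (0.651 to 1.43) at the unequal median depths of 7304 and 8420 UMIs. After every cell was thinned to 2000 UMIs the shares were 0.0837% and 0.339%. Counting intervals of CPM levels, CPM ratios and UMI shares take UMIs as independent. Those given for Slc7a11 in gCap-like cells, above and below, are thus too narrow. The same count was made for Slc7a1, Slc7a5 and Slc1a5, of which a gCap-like cell held at most 5, 2 and 4 UMIs.

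Among the named classes Slc7a11 was highest in neutrophil-like cells, at 1120 CPM (949 to 1313) in 19 cells of the B16-F10 library and 716 CPM (381 to 1224) in 3 control cells. The summed level of the 8 neutrophil markers in gCap-like cells was 3.26 CPM in the control and 10.4 CPM in the B16-F10 library, and 7 of the 8 were higher there. Retnlg was the 1 marker at 0 in control cells. Of the 61 gCap-like cells with a Slc7a11 UMI, 3 (4.92%, 1.03 to 13.7) also had a UMI of a neutrophil marker, against 7.08% (6.34 to 7.88) of the other 4391. Without cells that had a neutrophil marker UMI the log2 ratio was 2.47 (1.81 to 3.20), beside 2.43 (1.77 to 3.15) with them. The source of the Slc7a11 UMIs in gCap-like cells was not tested. RNA free in the suspension would supply an estimated 0.119 and 0.25 CPM of Slc7a11 in these cells.

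The arginine carrier Slc7a1 was at 8.18 CPM (7.27 to 9.17) in control and 16.7 CPM (15.4 to 18.0) in B16-F10 gCap-like cells. Its log2 ratio was 1.03 (0.83 to 1.23). Cells with a Slc7a1 UMI made up 5.31% (4.69 to 5.98) and 11.0% (10.1 to 11.9), or 1.51% and 3.03% after thinning to 2000 UMIs, a difference of 1.52 percentage points (0.918 to 2.15). The related carrier Slc7a2 had 4 and 12 UMIs and was not measured. Among the named classes its level was highest in the few macrophage/monocyte-like cells, at 164 CPM (95.6 to 263) in 6 control cells and 85.7 CPM (63.2 to 114) in 37 cells of the B16-F10 library.

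The neutral amino acid exchangers were also called higher in gCap-like cells. Slc1a5 was at 1.52 CPM (1.14 to 1.98) in control and 4.15 CPM (3.53 to 4.84) in B16-F10 cells, a log2 ratio of 1.45 (1.00 to 1.92). Slc1a4 was at 0.884 CPM (0.605 to 1.25) and 1.42 CPM (1.07 to 1.84), a log2 ratio of 0.68 (0.03 to 1.36). The Slc1a4 call held under 6 of 14 alternative settings, and without cells that had a UMI of a platelet, mural, macrophage/monocyte, neutrophil or melanoma marker its ratio was −0.29. The carriers Slc38a1 and Slc38a2 were not called. Slc38a2, with 6387 and 7281 UMIs, was at 177 CPM (172 to 181) and 187 CPM (183 to 192), a log2 ratio of 0.09 (0.04 to 0.14). Slc38a1, with 33 and 36 UMIs, had a log2 ratio of 0.02 (−0.70 to 0.75), so a difference of up to that size was not detectable at this depth.

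Free RNA and transcripts of other cell types moved between the libraries as well. The estimated share of free RNA among UMIs of gCap-like cells was 1.47% in the control and 2.14% in the B16-F10 library. It would supply 4.73 and 13.0 CPM of Slc3a2, 0.166 and 0.318 CPM of Slc7a1, 0.0363 and 0.0874 CPM of Slc7a5, and 0.0701 and 0.293 CPM of Slc1a5, and after its subtraction the same number of members, 6, was called higher. Summed levels in gCap-like cells were 1.35 and 36.0 CPM for the 8 melanoma markers, all 8 of them higher in the B16-F10 library and Mlana, Tyrp1 and Slc45a2 at 0 in the control. They were 16.7 and 30.5 CPM for the macrophage/monocyte list (6 of 8 higher), 39.5 and 63.4 CPM for the mural list (7 of 8) and 50.9 and 101 CPM for the epithelial list (7 of 8). Melanoma-like cells themselves held 70.7 CPM (53.7 to 91.4) of Slc7a5, 30.5 CPM (19.7 to 45.0) of Slc1a5 and 24.4 CPM (14.9 to 37.6) of Slc7a11. In gCap-like cells without a melanoma marker UMI the log2 ratios were 2.21 (1.31 to 3.21) for Slc7a5, 1.53 (1.05 to 2.02) for Slc1a5 and 2.37 (1.67 to 3.13) for Slc7a11. Without cells that had a macrophage/monocyte marker UMI they were 2.06 (1.16 to 3.06), 1.42 (0.95 to 1.92) and 2.31 (1.64 to 3.05), and 1.11 (0.88 to 1.33) for Slc7a1. With cells that had a UMI of any platelet, mural, macrophage/monocyte, neutrophil or melanoma marker left out, 3014 and 1610 cells remained, and 4 of 5 measured members were called higher, against 8.72% of genes. The part of the epithelial list in the ratios was not tested.

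**Figure D1:**
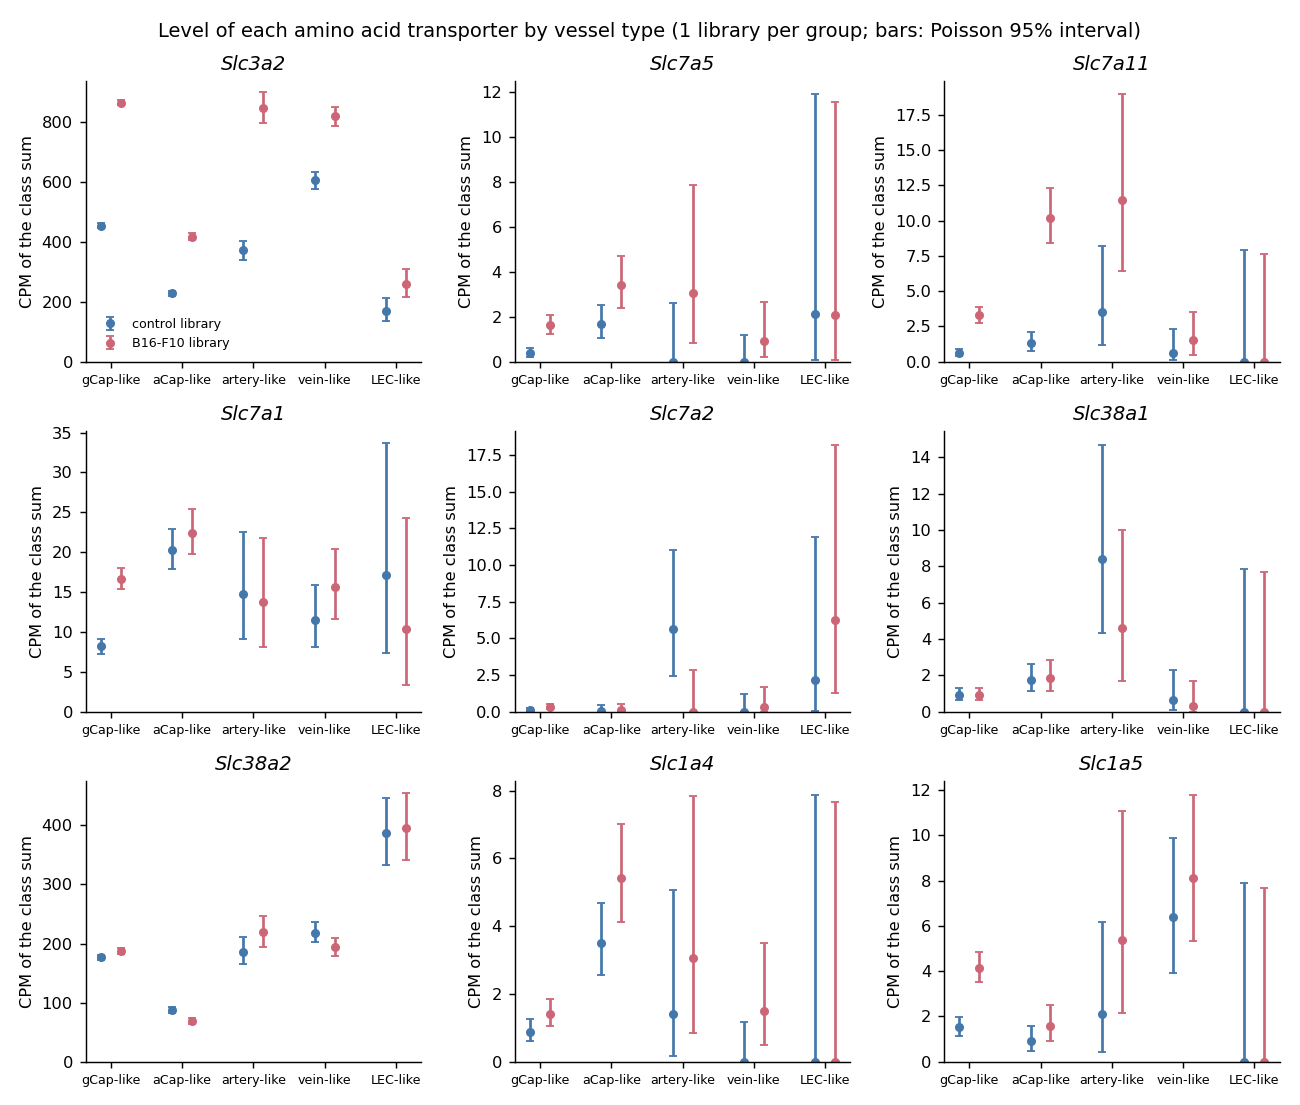
Level of each transporter in CPM (vertical axes, from 0, scaled per gene) in the 5 vessel types, with the control library in blue and the B16-F10 library in red; points are class sums of 1 library and bars are Poisson 95% intervals. Slc3a2 stands at 454 and 864 CPM in gCap-like cells, while Slc38a2 is at 177 and 187 CPM there.

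The other vessel types shared the higher Slc3a2 level, but with different sizes. In aCap-like cells Slc3a2 was at 227 CPM (219 to 236) in the control and 416 CPM (404 to 428) in the B16-F10 library, a log2 ratio of 0.87 (0.80 to 0.94). Artery-like cells had 370 CPM (339 to 403) and 846 CPM (797 to 897), a ratio of 1.19 (1.04 to 1.34). LEC-like cells had 169 CPM (134 to 210) and 258 CPM (214 to 307), a ratio of 0.61 (0.19 to 1.04). Vein-like cells had the highest control level, 604 CPM (577 to 632), and 817 CPM (787 to 849) in the B16-F10 library. Their ratio of 0.44 (0.35 to 0.52) lay under the size required for a call. Differences between vessel types in these ratios were not tested, since each rests on 1 pair of libraries.

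The order of the vessel types for Slc3a2 accordingly differed between libraries. In the control library it was vein-like, gCap-like, artery-like, aCap-like and LEC-like, with no overlap between the intervals of neighbours. In the B16-F10 library gCap-like, artery-like and vein-like cells stood first with overlapping intervals, and aCap-like and LEC-like cells followed apart from them. For Slc38a2 the LEC-like cells stood highest in both libraries, at 387 CPM (332 to 447) and 395 CPM (341 to 455), and aCap-like cells lowest, at 87.8 CPM (82.8 to 93.0) and 68.9 CPM (64.1 to 74.1). The artery-like, vein-like and gCap-like cells between them had overlapping neighbours in both libraries.

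aCap-like cells differed from gCap-like cells in which members were called. In aCap-like cells 4 of 6 measured members were called higher, where 8.54% of 11107 genes were called higher, and none was called lower (9.79%). These were Slc3a2, Slc7a5, Slc7a11 and Slc1a4. The Slc3a2 call held under 12 of 12 alternative settings, those of Slc7a5 and Slc7a11 under 10 and that of Slc1a4 under 9. Without cells that had a UMI of a platelet, mural, macrophage/monocyte, neutrophil or melanoma marker, the ratios of Slc7a5, Slc7a11 and Slc1a4 were 0.65, 1.64 and 0.077, over 26, 27 and 41 UMIs. After thinning to 2000 UMIs per cell they were 0.25, 2.28 and 0.34, over 9, 17 and 24 UMIs. None of these sums reached the 50 UMIs that a call required. The median over the 6 was 0.75 (0.43 to 1.08), against 0.01 over all measured genes. Slc7a1 started from a higher level in aCap-like cells than in gCap-like cells, 20.3 CPM (17.9 to 22.9) in the control, and was at 22.5 CPM (19.7 to 25.5) in the B16-F10 library. The log2 ratio was 0.15 (−0.11 to 0.40), an interval that lies wholly below the one of gCap-like cells, and after thinning it was −0.36. The Slc7a1 ratio of gCap-like cells was 0.43 without the cluster led by Tmem252 and Adamts9. The difference between these classes was not tested. Slc38a2 was lower in B16-F10 aCap-like cells, with a ratio of −0.35 (−0.48 to −0.21) that did not reach the size of a call.

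Slc7a11 had its largest ratio in aCap-like cells. It was at 1.30 CPM (0.754 to 2.07) in the control and 10.2 CPM (8.40 to 12.3) in the B16-F10 library, a log2 ratio of 2.98 (2.24 to 3.81). Of the 111 UMIs in the B16-F10 library, 91 came from 10 cells. The share of cells with a Slc7a11 UMI was 1.03% (0.580 to 1.70) and 2.80% (1.85 to 4.04), a difference of 1.76 percentage points (0.668 to 3.07) at median depths of 9141 and 11357 UMIs. The 10 cells therefore set most of the ratio of the sums. Without cells that had a melanoma marker UMI, 58 of the 111 UMIs remained and the ratio was 2.41 (1.61 to 3.29). It was 3.29 (2.48 to 4.21) without cells that had a neutrophil marker UMI. Without those that had a macrophage/monocyte marker UMI it was 2.91 (2.15 to 3.75). Slc7a5 was at 1.68 CPM (1.05 to 2.54) and 3.41 CPM (2.40 to 4.69), a ratio of 1.02 (0.22 to 1.85), and Slc1a4 at 3.50 CPM (2.57 to 4.67) and 5.43 CPM (4.13 to 7.00), a ratio of 0.63 (0.05 to 1.22). Slc1a5, with 12 and 17 UMIs, and Slc38a1, with 23 and 20, were not measured in these cells.

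The smaller classes allowed few statements. In artery-like cells 1 of 2 measured members, Slc3a2, was called higher (9.98% of all measured genes) and none lower (8.79%), and Slc38a2 had a ratio of 0.23 (−0.01 to 0.48). In LEC-like cells Slc3a2 was also called, 1 of 2 (7.58% of all), with none lower (6.87%), and Slc38a2 had a ratio of 0.03 (−0.27 to 0.33). In vein-like cells none of 3 was called higher (5.65% of all) or lower (6.08%), with Slc7a1 at 0.44 (−0.20 to 1.09) and Slc38a2 at −0.17 (−0.33 to −0.02). The median ratios were 0.71 in artery-like, 0.44 in vein-like and 0.32 in LEC-like cells, each over 2 or 3 genes. Over all endothelial cells together, 7 of 8 measured members were called higher, against 9.44% of 14396 genes, and none lower (13.8%). This sum includes unnamed endothelial clusters. Slc38a1, not called in any single vessel type, was called in it at 0.61 (0.18 to 1.06). Of its 118 UMIs in the B16-F10 library, 51 lay in 1 unnamed cluster, described below, that held 7 control cells.

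**Figure D2:**
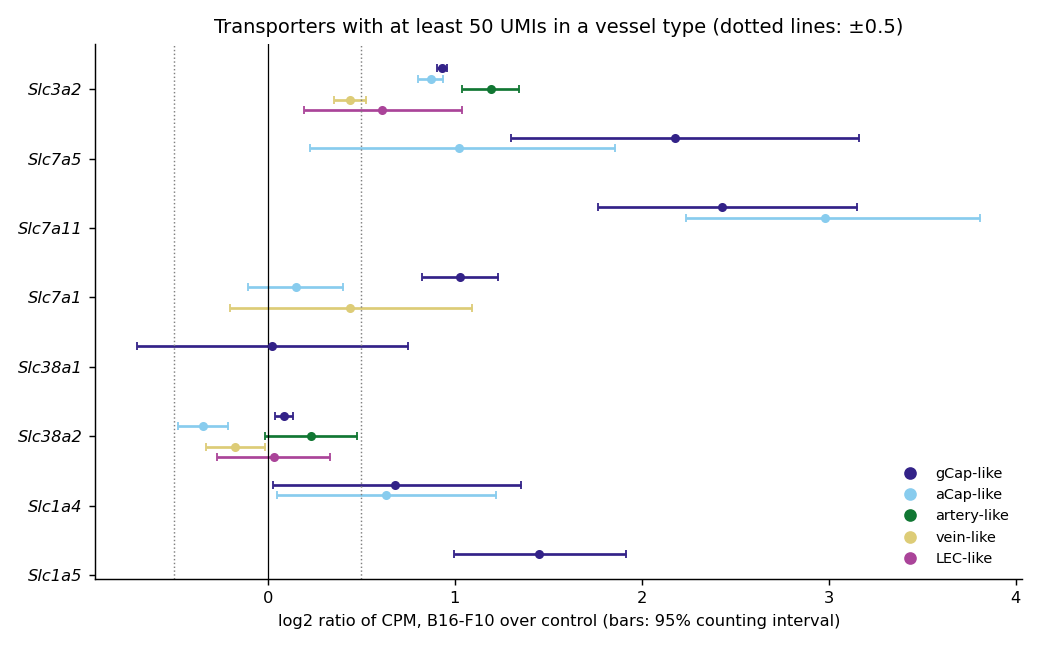
Log2 ratio of CPM, B16-F10 over control (horizontal axis), for each transporter with at least 50 UMIs in a vessel type, coloured by vessel type, with 95% counting intervals and dotted lines at the call size of 0.5. Slc3a2 lies right of 0 in all 5 vessel types, whereas Slc38a2 lies at 0.09 in gCap-like and −0.35 in aCap-like cells.

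The share of cells with a UMI gave the same picture for Slc3a2 when depth was made equal. At 2000 UMIs per cell, 56.8% (55.4 to 58.2) of control and 76.1% (74.8 to 77.3) of B16-F10 gCap-like cells had a Slc3a2 UMI, a difference of 19.3 percentage points (17.4 to 21.1). Without thinning the shares were 88.2% and 97.3%. In aCap-like cells the thinned shares were 35.5% and 53.9%, a difference of 18.4 points (14.3 to 22.4). In artery-like cells they were 49.7% and 69.3%, in vein-like cells 65.0% and 77.2%, and in LEC-like cells 28.1% and 47.1%, and each of the 3 differences had an interval above 0. For Slc38a2 the difference in gCap-like cells was 1.62 points (−0.24 to 3.48). It was −2.49 points (−5.31 to 0.44) in aCap-like and −6.80 points (−14.3 to 0.77) in vein-like cells, and each of these intervals included 0. Thinning left out 62 control and 30 B16-F10 gCap-like cells with fewer UMIs.

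**Figure D3:**
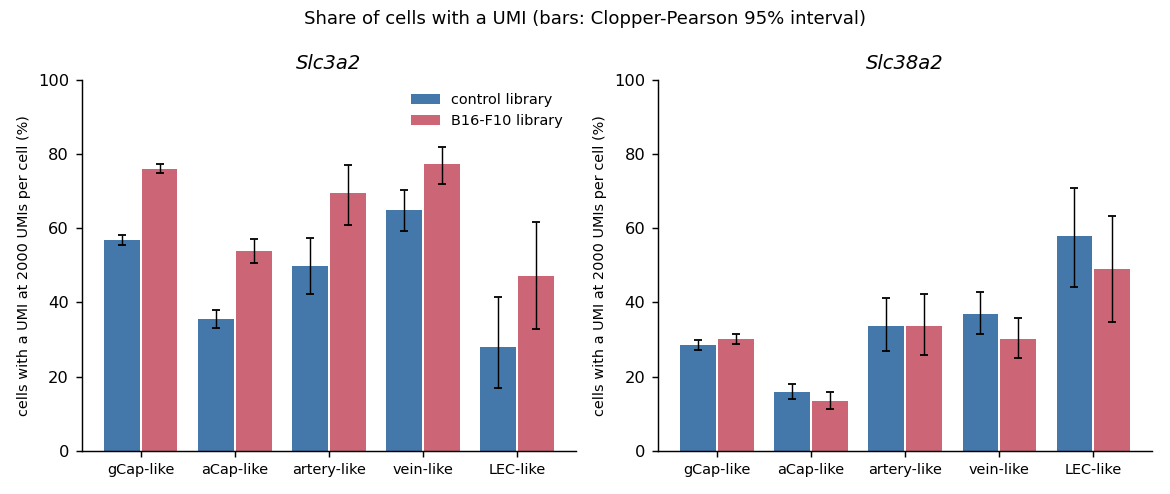
Percent of cells with a UMI of Slc3a2 (left) and Slc38a2 (right) after every cell was thinned to 2000 UMIs, by vessel type, with Clopper-Pearson 95% intervals. The Slc3a2 bar of the B16-F10 library is above that of the control library in each vessel type, 76.1% against 56.8% in gCap-like cells.

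Within gCap-like cells the members differed in how their UMIs were spread over clusters. Slc3a2 was higher in all 6 gCap-like clusters, with log2 ratios from 0.48 (0.35 to 0.61) in the cluster led by Tmem252 and Adamts9 to 1.01 (0.93 to 1.1) in the one led by Pcsk5. Slc7a1 also had a ratio above 0 in all 6, from 0.24 to 1.86, with an interval that included 0 in 2 of them. Slc38a2 had ratios from −0.32 to 0.18. The cluster led by Tmem252 and Adamts9 held 24.0% of B16-F10 gCap-like cells and 25.9% of their UMIs. It held 32.8% (32.3 to 33.3) of their Slc3a2 UMIs and 27.6% (26.6 to 28.6) of their Slc38a2 UMIs, with 30.6% (16.3 to 48.1) of Slc38a1 and 45.5% (32.0 to 59.4) of Slc1a4. It held 51.2% (47.2 to 55.1) of their Slc7a1 UMIs, 55.9% (46.8 to 64.7) of Slc7a11, 63.5% (50.4 to 75.3) of Slc7a5 and 64.6% (56.7 to 72.0) of Slc1a5. Since the cluster was drawn from these cells, its shares are a description. The Slc7a11 interval is too narrow, since 10 cells held 72 of the 127 Slc7a11 UMIs.

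Levels in the B16-F10 cells of the cluster led by Tmem252 and Adamts9 were 32.9 CPM (29.5 to 36.7) for Slc7a1, 10.3 CPM (8.45 to 12.5) for Slc1a5, 7.06 CPM (5.52 to 8.91) for Slc7a11 and 3.98 CPM (2.84 to 5.42) for Slc7a5. In the other 5 gCap-like clusters of that library Slc7a1 lay between 7.65 and 16 CPM and Slc1a5 between 0.774 and 2.79 CPM. Without this cluster, 2 of 7 measured members were called higher, against 6.44% of genes, and the median ratio was 0.38. Slc3a2 then had a ratio of 0.81 and Slc7a11 of 1.65, while Slc7a1 was at 0.43 and Slc1a5 at 0.38. The count of called members therefore depended on this cluster, and the higher Slc3a2 level did not.

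A further cluster of endothelial cells met no vessel class and was almost absent from the control library, with 7 and 297 cells. Its leading genes included Sox9, Fosl1, Hbegf, Myc and Inhbb. In the B16-F10 library it held 4.25% of endothelial cells, but 27.8% (25.5 to 30.3) of the Slc7a1 UMIs of all endothelial cells, 43.4% (36.3 to 50.6) of Slc7a5, 43.2% (34.1 to 52.7) of Slc38a1 and 45.7% (40.8 to 50.8) of Slc1a5. Levels there were 128 CPM (116 to 142) for Slc7a1, 61.4 CPM (52.8 to 71.0) for Slc1a5, 28.7 CPM (22.9 to 35.5) for Slc7a5, 17.2 CPM (12.8 to 22.6) for Slc38a1 and 15.5 CPM (11.4 to 20.7) for Slc7a11. Slc3a2 behaved differently: at 283 CPM (264 to 303) it was lower there than in any gCap-like cluster of the same library. The 7 control cells allow no comparison within the cluster.

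**Figure D4:**
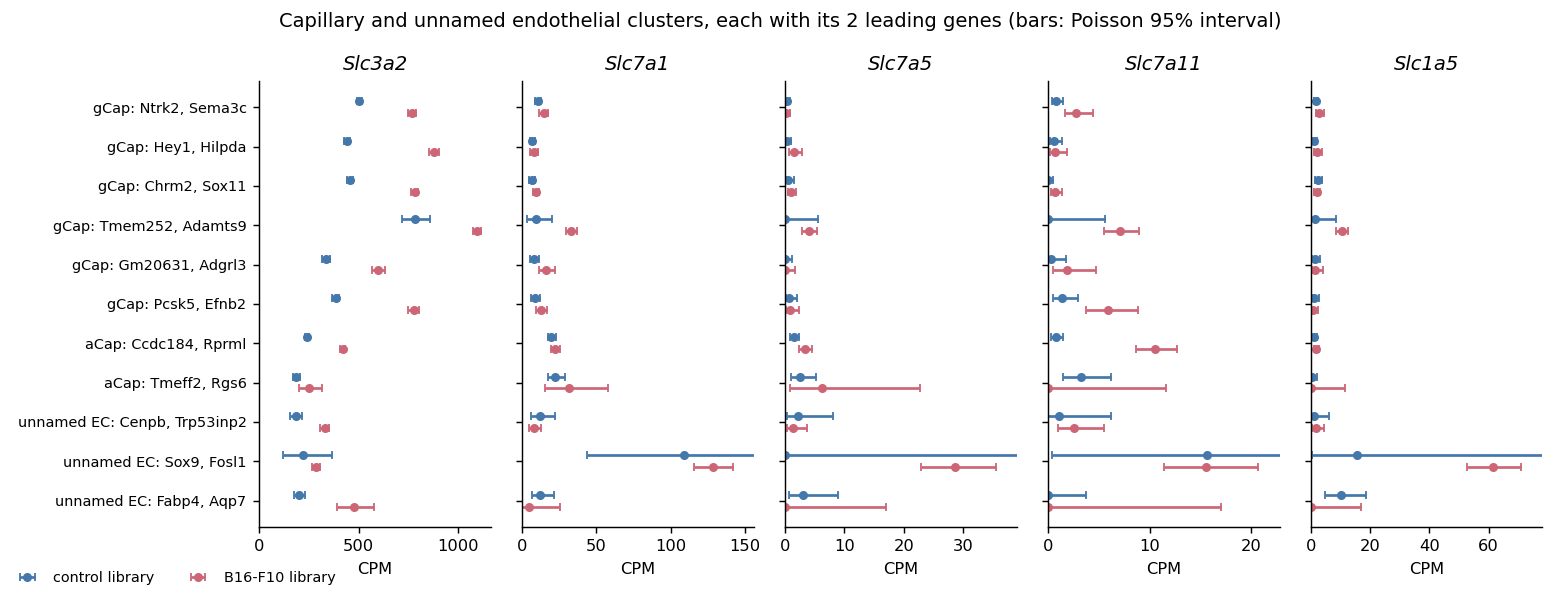
CPM of 5 transporters (horizontal axes) in each gCap-like, aCap-like and unnamed endothelial (EC) cluster, named by 2 leading genes, for the control (blue) and B16-F10 (red) library with Poisson 95% intervals, some of which run past the axis where few control cells were present. Slc7a1, Slc7a5 and Slc1a5 peak in the unnamed cluster led by Sox9 and Fosl1, at 128, 28.7 and 61.4 CPM, while Slc3a2 peaks in the gCap-like cluster led by Tmem252 and Adamts9, at 1094 CPM.

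The rCap markers of the study allowed the same cells to be ordered without clusters. A score was made of the UMIs of 43 of these markers per cell at 2000 UMIs, leaving out Slc3a2, Kit and interferon genes, and the 95th percentile of control gCap-like cells (33 UMIs) divided the cells into 2 ranges. In the control library 204 of 4778 cells (4.27%) lay over it. In the B16-F10 library 2306 of 4422 cells did (52.1%), and 592 of the 4422 were within 2 UMIs of it. Among B16-F10 cells, the log2 ratio of the range over it against the range under it was 1.04 (0.79 to 1.29) for Slc7a1, 1.30 (0.47 to 2.19) for Slc7a5, 1.15 (0.64 to 1.67) for Slc1a5 and 0.83 (0.28 to 1.39) for Slc7a11. With 4000 UMIs per cell the Slc7a11 value was 0.37 (−0.17 to 0.92), an interval that includes 0. At 2000 UMIs the ratio was 0.56 (0.52 to 0.59) for Slc3a2 and 0.12 (0.05 to 0.18) for Slc38a2. In control cells the Slc3a2 ratio between ranges was 0.71 (0.61 to 0.79). The study chose its rCap markers partly on these libraries, so the higher scores in the B16-F10 library are not independent evidence. The shares and ratios by score are a description. The Slc7a11 intervals are too narrow, since many of its UMIs lay in few cells.

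The libraries were also compared within the lower range. At or under 33 UMIs of the score, Slc3a2 was at 443 CPM (436 to 450) in the control and 693 CPM (681 to 705) in the B16-F10 library, a log2 ratio of 0.65 (0.61 to 0.68). There Slc7a1 was at 8.12 CPM (7.2 to 9.13) and 10.7 CPM (9.23 to 12.3), a ratio of 0.39 (0.12 to 0.66) that lay under the size of a call. Slc7a11 had a ratio of 2.01 (1.21 to 2.85) and Slc1a5 one of 0.70 (0.10 to 1.30), while Slc7a5 had one of 1.29 (0.16 to 2.46). The Slc7a11 interval is again too narrow. The intervals of Slc1a4, 0.70 (−0.12 to 1.51), Slc38a2, 0.02 (−0.04 to 0.08), and Slc38a1, −0.09 (−1.06 to 0.81), included 0. The ranges are parts of a continuous score and not cell types.

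Most members were too rare to be seen in most gCap-like cells at 2000 UMIs, so cells with several members are undercounted. At 2000 UMIs per cell, 30.7% (29.4 to 32.0) of control and 15.3% (14.3 to 16.4) of B16-F10 gCap-like cells had no UMI of any of the 9 genes, while 17.4% (16.3 to 18.5) and 24.3% (23.1 to 25.6) had UMIs of 2 of them. The mean number of UMIs of the 9 genes per cell was 1.33 and 2.19. Of the 134 B16-F10 cells with a Slc7a1 UMI, 64.9% (56.2 to 73.0) also had one of Slc3a2, against 76.4% (75.1 to 77.7) of the cells without a Slc7a1 UMI. In control cells these shares were 62.5% (50.3 to 73.6) and 56.7% (55.3 to 58.2). Few B16-F10 cells had a UMI of a light chain partner of Slc3a2. Of 11 cells with a Slc7a5 UMI, 90.9% (58.7 to 99.8) had one of Slc3a2, against 76.0% of the others. Of 15 cells with a Slc7a11 UMI, 66.7% (38.4 to 88.2) had one, against 76.1% of the others.

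Genes of the amino acid response, through which cells answer a shortage of amino acids, were mostly higher in gCap-like cells of the B16-F10 library. Of 25 measured genes of this list, 20 had a ratio above 0, 11 were called higher and none lower, with a median ratio of 0.47 (0.29 to 0.66). Over all genes measured in gCap-like cells 45.4% had a ratio above 0, 9.16% were called higher and 11.6% lower, shares that apply to the lists below as well. The 5 with the largest ratios were Atf3 at 2.82 (2.66 to 2.98), Phgdh at 1.69 (0.90 to 2.57), Cebpb at 1.6 (1.42 to 1.78), Gdf15 at 1.39 (0.96 to 1.83) and Asns at 1.24 (1.06 to 1.43). Atf3 and Cebpb encode transcription factors that also answer other stresses and cytokines, Phgdh starts serine synthesis, Gdf15 is a secreted stress factor and Asns makes asparagine. Atf3 went from 10.5 to 74.0 CPM and Asns from 9.12 to 21.6 CPM. Atf4 itself, at 83.2 and 139 CPM, had a ratio of 0.74 (0.68 to 0.81). Other genes of the list had a ratio below 0, and none of these reached the size of a call. They were Chac1 at −0.43 (−0.76 to −0.11), Herpud1 at −0.40 (−0.49 to −0.32) and Pck2 at −0.38 (−0.56 to −0.19). Ddit3 was at −0.36 (−0.56 to −0.17) and Trib3 at −0.35 (−0.75 to 0.06).

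Genes of arginine, cystine and tRNA charging were counted in the same way. Of 16 measured genes of arginine and polyamine metabolism 4 were called higher and none lower, with a median of 0.12 (−0.03 to 0.28). These were Nos2, the inducible nitric oxide synthase, at 1.35 (0.94 to 1.77), the polyamine enzymes Odc1 at 1.25 (1.13 to 1.38) and Srm at 1.07 (0.86 to 1.28), and Ddah1, which degrades methylated arginine, at 0.67 (0.61 to 0.73). Of 18 genes of glutathione and cystine use 3 were called higher and none lower (median 0.21, 0.08 to 0.33), namely the redox enzymes Srxn1 at 0.77 (0.66 to 0.88), Txnrd1 at 0.61 (0.54 to 0.67) and Nqo1 at 0.57 (0.43 to 0.71). Of 20 cytosolic tRNA synthetases, which charge tRNAs with amino acids, 18 had a ratio above 0 and 4 were called higher (median 0.26, 0.14 to 0.39). These were Wars at 0.99 (0.93 to 1.05), Vars at 0.69 (0.52 to 0.85), Aars at 0.54 (0.40 to 0.68) and Mars at 0.50 (0.34 to 0.67).

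The list of other amino acid carriers had a median below 0. Of its 19 measured genes 4 had a ratio above 0, none was called higher and 3 were called lower, against 9.16% and 11.6% of all genes, with a median of −0.31 (−0.48 to −0.13). Those called were Slc6a20b at −0.71 (−1.17 to −0.26), Slc38a6 at −0.54 (−0.67 to −0.42) and Ctns, the lysosomal cystine exporter, at −0.51 (−0.69 to −0.34). In amino acid sensing by mTORC1, the kinase complex that reads amino acid supply, 12 of 30 genes had a ratio above 0, none was called higher and 5 were called lower, with a median of −0.09 (−0.23 to 0.05) beside −0.04 over all genes. These were the sestrin Sesn3 at −0.79 (−1.11 to −0.46), Flcn at −0.74 (−0.96 to −0.52), Sesn1 at −0.72 (−0.82 to −0.62), Fnip1 at −0.62 (−0.68 to −0.57) and Castor2 at −0.52 (−0.70 to −0.33). In glutamine and serine use 1 of 17 genes was called higher, Cad of pyrimidine synthesis at 0.76 (0.41 to 1.11), and 1 lower, the mitochondrial carrier Slc25a13 at −0.53 (−0.96 to −0.10).

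**Figure D5:**
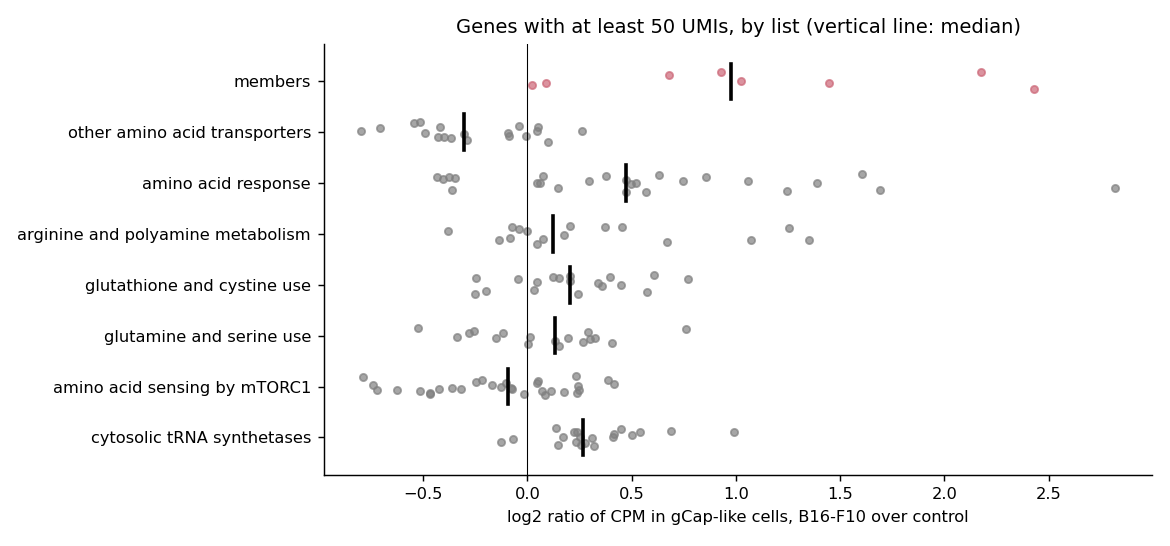
Log2 ratio of CPM in gCap-like cells, B16-F10 over control (horizontal axis), for each gene with at least 50 UMIs, grouped by list, with the members in red and a black line at each median. The medians are 0.98 for the 8 measured members, 0.47 for the amino acid response and −0.31 for the other amino acid transporters.

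In aCap-like cells the list medians were 0.45 for the amino acid response (9 of 21 called higher), 0.51 for arginine and polyamine metabolism (8 of 16), 0.49 for glutathione and cystine use (8 of 18) and 0.32 for the tRNA synthetases (2 of 20), where 8.54% of all genes were called higher and 9.79% lower. Glutamine and serine use had a median of −0.0089 with 1 of 14 called higher and none lower, and amino acid sensing by mTORC1 one of −0.04 with 1 of 30 called higher and 3 lower. The other amino acid transporters had a median of −0.17 there, with 3 of 16 called lower.

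Slc3a2 and Slc38a2 were the members measured in all 5 vessel types, so likeness to other genes could be described for these only. Over the 10 sums of 5 vessel types and 2 libraries, Pearson's r of log2(CPM + 1) was highest with Slc3a2 for mt-Nd3 (0.966), Xbp1 (0.949) and mt-Nd4l (0.945) among 3603 genes. Xbp1 is an rCap marker of the study, and mt-Nd3 and mt-Nd4l are mitochondrial transcripts. For Slc38a2 it was highest with Kif1c (0.983), Asah2 (0.971) and Yes1 (0.970). Each set of 5 sums shares a library, so these values describe the sums and nothing more.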

How the data were processed

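Single-cell libraries of sorted lung endothelial cells were analysed from the raw UMI counts that the authors deposited per gene and barcode, with every barcode listed and no filter or normalization. The submitters' processing notes name Cell Ranger 7.2.0, Seurat 4.4.0 and mm10. The study's methods give another Cell Ranger version, and whether intronic reads were counted is not given in the sources used here, which could change the level of long genes. The members and lists were chosen with earlier results of these data known.

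The study's limits were applied: 1000 to 5000 genes per cell and less than 20% of UMIs from mitochondrial genes. Scrublet in scanpy 1.11.5 removed the highest doublet scores at 0.8% per 1000 cells (564 and 554 cells). After scaling each cell to 10000 UMIs and taking logs, 2955 variable genes, without the members and the rCap and interferon lists, were scaled per library, reduced to 30 components and clustered with leidenalg 0.10.2 (20 neighbours, resolution 0.8) into 22 clusters. A class needed at least 3 markers and 50% of its list, each 1.5-fold above the other clusters and in 10% of cells. Endothelial cells needed 6 of 8 markers in 50% of cells. Leading genes had to be present in 25% of cells. These thresholds were chosen once an initial clustering was known. Mixed clusters (499 and 572 cells) were left out, and unnamed endothelial clusters (473 and 1089 cells) counted as endothelial only.

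For each class the UMIs of its cells were added up within a library and given as CPM with exact Poisson intervals. Log2 ratios have no pseudocount, and their intervals are exact and binomial, conditional on the summed UMIs. Shares carry Clopper-Pearson and differences Newcombe intervals. The script was tested on simulated data. Free RNA was estimated from Sftpc, Sftpb, Sftpa1, Scgb1a1 and Scgb3a2 against barcodes of 1 to 100 UMIs. Named genes were all members, the 5 most changed called genes per list and direction, and the 3 genes most like each member measured in all 5 vessel types. Of the gene IDs 32235 of 32285 were found in GENCODE M21. Alternatives changed cell limits, doublets, clustering, thinning, scaling, free RNA, marker-positive cells, the UMI minimum and the call size.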

Additional observations from a re-analysis of the deposited data

Results flagged for a closer look

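Slc38a2 stood out because its ratio, B16-F10 over control, went in opposite directions beyond counting error in different vessel types. It was 0.09 in gCap-like cells, −0.35 in aCap-like cells and −0.17 in vein-like cells. Among gCap-like clusters the Slc38a2 ratio itself ran from −0.32 (−0.55 to −0.09) to 0.18 (0.07 to 0.29). At equal depth the differences in the share of cells with a UMI had intervals including 0 in these vessel types. The difference between vessel types was not tested, since each has 1 library per group.

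Other values come from barcodes that the comparisons did not use. In near-empty barcodes of 1 to 100 UMIs, Slc3a2 was at 321 CPM in the control and 608 CPM in the B16-F10 library, and Slc1a5 at 4.76 and 13.7 CPM. In barcodes with at least 300 but under 1000 genes, Slc3a2 was at 142 and 226 CPM. Among barcodes with over 5000 genes, Slc7a1 was at 16.7 and 28.6 CPM, Slc7a5 at 2.85 and 8.07 CPM, Slc7a11 at 9.01 and 13.0 CPM, Slc3a2 at 316 and 528 CPM, and Slc38a1 at 8.06 and 26.9 CPM.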

How the results depend on the processing

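Of 430 recomputed values for 39 results, 400 stayed within the interval of the reported value (counts within 1.5-fold). No paired analysis was possible because nothing could be paired with 1 library in either group. The cluster led by Tmem252 and Adamts9 and the clusters under 5000 UMIs were left out as alternatives chosen after seeing the data. Without the former, 2 members were called higher in gCap-like cells and the median ratio was 0.38, while the median of the tRNA synthetases was 0.12 and that of glutamine and serine use turned to −0.055. With cells thinned to 2000 UMIs 3 of 4 members still measured were called, since fewer genes reached 50 UMIs. With a minimum of 10 UMIs the median of the other transporters was −0.091. The aCap-like median turned to −0.34 after thinning and to −0.053 without marker-positive cells, each over 3 members. The vein-like median moved to 0.091 with no maximum of genes, 0.12 under 10% mitochondrial UMIs, 0.034 after thinning and 0.10 without marker-positive cells. For these the set of members reaching 50 UMIs also changed. Slc1a4 in gCap-like cells turned to −0.29 without marker-positive cells, over 33 UMIs. With the 99th percentile of the rCap score the ratio between ranges was 1.31 for Slc7a1, and at 4000 UMIs per cell it was 0.046 for Slc38a2. Slc3a2 was called higher in gCap-like cells under 14 of 14 alternatives, with ratios from 0.81 to 0.97, and in vein-like cells it stayed uncalled under 9 of 11.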
